A study of Mus musculus with 68 samples.

Results

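Mest, Peg13, Nap1l5, Plagl1, Peg3, Peg10, Sgce, Zrsr1, Impact and Snrpn are imprinted genes that mouse uses from the copy inherited from the father, and they are 10 of the 55335 gene rows counted in this study. They were chosen by name, with earlier results of these data known and no record of which values were used. The 3 rescue contrasts and the contrast of MCM2-2A with WT clones are taken as used, and are given below as descriptions without a test. Contrasts between single lines, tests among clones and the POLE4 contrasts were tested, but libraries of the clone table stand in several of them, and MCM2-2A#2 and WT#1 are lines of the rescue experiment too, so those p-values are not independent of the choice of genes. All 10 had counts in the rescue, clone and POLE4 experiments, and all 10 passed the filter on low counts in each. All samples were untreated male E14JU embryonic stem cells (ESCs) of strain 129/Ola, grown in serum with LIF on gelatin, and each line was 1 clone. MCM2-2A cells are mutated by base changes where MCM2, a replicative helicase subunit, binds histones. MCM2-R#2 is MCM2-2A#2 with the wild-type MCM2 sequence restored, and POLE4-KO cells lack the DNA polymerase epsilon subunit POLE4. The study asked whether parental histones must be shared evenly between both daughter strands for gene expression to be kept. The rescue experiment held MCM2-2A#2, MCM2-R#2 and WT#1, with 4 cultures each. The clone experiment held MCM2-2A#1 and MCM2-2A#2 from January, MCM2-2A#1, MCM2-2A#3 and WT#1 from March (3 libraries each), and MCM2-2A#4 to MCM2-2A#8 and 7 WT clones from August (2 libraries each). The POLE4 experiment held POLE4-KO#1, POLE4-KO#2, POLE4-KO#3 and WT#1, with 3 libraries each. WT#1 was the control in the rescue, POLE4 and March comparisons, which therefore share a control clone, and cultures or libraries of a clone measured the spread of that clone alone.

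At an imprinted locus, DNA methylation laid down in 1 parental germline marks a control region, and the marked copy is kept through the early embryo while the rest of the genome is largely demethylated. The zinc-finger protein ZFP57, which recognises a methylated TGCCGC hexamer, recruits TRIM28 and with it SETDB1, which writes H3K9me3, to keep that mark. ESC lines are known to gain or lose imprints in culture, and different clones of a line can then express the same imprinted gene at different levels. For each of these genes the methylated copy is the maternal one, which is silent.

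Promoter windows of 300 bases (250 before to 50 after the transcription start) were taken from RefSeq (GRCm38.p6) for Mest, Plagl1 and Zrsr1, whose levels differed in several of the comparisons between lines below. Where a gene had several windows the one with the most CG dinucleotides is shown. The ZFP57 hexamer TGCCGC, or GCGGCA where it lies on the other strand, is in capitals. The Mest window is chr6:30737800-30738099 (plus strand), the Plagl1 window chr10:13090582-13090881 (plus strand) and the Zrsr1 window chr11:22971755-22972054 (plus strand).
Mest: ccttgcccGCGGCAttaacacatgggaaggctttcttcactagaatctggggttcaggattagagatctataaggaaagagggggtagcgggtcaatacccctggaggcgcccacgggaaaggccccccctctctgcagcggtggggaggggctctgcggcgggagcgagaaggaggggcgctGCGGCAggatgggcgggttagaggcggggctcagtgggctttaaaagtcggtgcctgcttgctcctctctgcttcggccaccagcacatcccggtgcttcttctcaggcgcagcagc
Plagl1: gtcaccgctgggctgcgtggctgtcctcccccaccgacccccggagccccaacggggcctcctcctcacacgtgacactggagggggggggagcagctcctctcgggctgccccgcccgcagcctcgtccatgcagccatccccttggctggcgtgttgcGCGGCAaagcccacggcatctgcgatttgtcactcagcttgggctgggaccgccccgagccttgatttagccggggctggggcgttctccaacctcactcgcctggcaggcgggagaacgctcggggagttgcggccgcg
Zrsr1: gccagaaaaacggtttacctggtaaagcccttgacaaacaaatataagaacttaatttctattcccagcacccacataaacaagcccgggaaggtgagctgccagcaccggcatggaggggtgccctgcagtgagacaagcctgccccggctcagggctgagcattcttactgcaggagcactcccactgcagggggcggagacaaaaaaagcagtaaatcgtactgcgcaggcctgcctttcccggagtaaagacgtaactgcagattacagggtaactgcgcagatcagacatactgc
The Mest window held 2 hexamers and 17 CG dinucleotides, the Plagl1 window 1 hexamer and 26 CG, and the Zrsr1 window 0 hexamers and 10 CG. Windows of 6 of the genes were used (Mest, Nap1l5, Plagl1, Peg3, Zrsr1 and Snrpn), 11 windows in all, and none of Peg13, Peg10, Sgce or Impact. The hexamer was in 5 of the 11 windows, against 11.6% of all 32851 windows in the table. Of the 3 Mest windows, 2 overlapping ones held 2 hexamers each and the third held 0 hexamers and 8 CG. Nap1l5 held 2 in its 1 window, Snrpn held 1 in 1 of its 4 windows, and Peg3 held 0. At least 2 hexamers were in 1.53% of all windows, and the median window had 7 CG. These are matches of letters in a window and were not tied to binding or methylation, which were not analysed here.

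The genes lie on 6 chromosomes of mm10. Mest, which encodes a protein of the hydrolase fold family, lies at chr6:30723547-30748465 on the plus strand. Peg10, a retrotransposon-derived gene, lies at chr6:4747306-4760517 on the plus strand, head to head with Sgce (epsilon-sarcoglycan, chr6:4674350-4747207, minus strand). Nap1l5, a nucleosome assembly protein family gene, lies at chr6:58905233-58907076 on the minus strand, inside Herc3, which runs on the opposite strand. Plagl1 (also Zac1), a zinc-finger transcription factor, lies at chr10:13060504-13131694 on the plus strand. Peg3, a zinc-finger gene, lies at chr7:6703892-6730431, and Snrpn, which encodes the spliceosomal protein SmN, lies at chr7:59982495-60140219, both on the minus strand. Peg13, a noncoding RNA, lies at chr15:72805600-72810324 on the minus strand, within Trappc9 on the same strand. Zrsr1, an intronless gene for a U2AF-related splicing protein, lies at chr11:22972005-22976496 on the plus strand, within Commd1 on the opposite strand. Impact, whose product restrains the eIF2alpha kinase GCN2, lies at chr18:12955852-12992950 on the plus strand. Snrpn shares its strand with Snurf and Mest overlaps Copg2 on the opposite strand. The libraries were strand-specific but the strand setting of the counting is not given in the sources used here, so the reads of overlapping genes may not have been fully separated.

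Depth was 21882680 to 58079695 counts in genes per culture of the rescue experiment. It was 26723456 to 64068260 counts per library of the clone experiment and 17500744 to 25659666 counts per library of the POLE4 experiment. A level that 3 counts would give was therefore at most 0.137, 0.112 and 0.171 CPM (counts relative to the TMM-scaled library total). Pole4 was at 2.88 to 3.75 CPM in POLE4-KO#1, 6.44 to 8.36 CPM in POLE4-KO#2 and 2.97 to 4.86 CPM in POLE4-KO#3, against 56.2 to 61.3 CPM in WT#1. The point mutation of MCM2-2A cannot be read from gene counts, so the MCM2 labels were not checked by them. Mcm2 averaged 225 CPM in MCM2-2A#2 and 213 CPM in MCM2-R#2, against 418 CPM in WT#1, in the rescue experiment. In August it was 191 to 268 CPM in the MCM2-2A clones, 296 to 405 CPM in 5 of the WT clones, and 218 and 232 CPM in the clones labelled WT#6 and WT#8. The test among WT clones and the contrast of genotypes were therefore also run without those 2 clones, while other August values include them. Stem cell markers (8 genes, none at 0 in any library) summed to 2185 to 4048 CPM everywhere. In these bulk samples fewer cells expressing a gene and less RNA per cell cannot be told apart.

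The 10 genes spanned a wide range of levels. Per kilobase of exon in WT#1 of the rescue experiment, Peg10 was at 104.6 CPM, Snrpn at 35.4, Impact at 25.9, Mest at 21.2, Peg3 at 8.67 and Zrsr1 at 3.54. Plagl1 (0.826), Peg13 (0.333), Sgce (0.233) and Nap1l5 (0.136) were below 1 CPM per kilobase. The order was the same in WT#1 of the POLE4 experiment, except that Sgce (0.299) stood above Peg13 (0.254) there.

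In the rescue experiment, Mest, Plagl1, Peg13, Zrsr1 and Impact are described first. The cultures of MCM2-R#2 did not overlap those of WT#1 at these genes, nor at Nap1l5 and Peg10. The share of all genes without such overlap was not counted, so nothing is read from this. Mest was at 26.3, 26.5, 41.1 and 33.5 CPM in the cultures of MCM2-2A#2, at 154, 149, 204 and 169.8 CPM in MCM2-R#2, and at 78.2, 74.6, 96.5 and 85.4 CPM in WT#1. The 3 lines did not overlap, with every MCM2-2A#2 culture below and every MCM2-R#2 culture above all WT#1 cultures. The log2 fold change (log2FC) of Mest was -1.40 ± 0.14 (SE) for MCM2-2A#2 over WT#1, 1.01 ± 0.13 for MCM2-R#2 over WT#1 and 2.41 ± 0.14 for MCM2-R#2 over MCM2-2A#2. Plagl1, a regulator of growth-related genes, was at 6.29, 5.46, 11.2 and 8.73 CPM in MCM2-2A#2, at 0.943, 0.539, 1.54 and 0.871 CPM in MCM2-R#2, and at 6.63, 3.67, 7.66 and 7.88 CPM in WT#1. MCM2-2A#2 overlapped WT#1, and MCM2-R#2 lay below both. Its log2FC was -3.04 ± 0.32 for MCM2-R#2 over MCM2-2A#2 and -2.76 ± 0.33 for MCM2-R#2 over WT#1, against 0.28 ± 0.26 for MCM2-2A#2 over WT#1.

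Peg13, the noncoding RNA of the Trappc9 locus, was at 0.137, 0.52, 0.269 and 0.415 CPM in MCM2-2A#2 (4, 14, 6 and 24 counts). It was at 0.0363, 0.15, 0.256 and 0.0697 CPM in MCM2-R#2 (1, 5, 7 and 2 counts), against 1.73, 1.38, 1.65 and 1.53 CPM in WT#1. Both edited lines lay below every WT#1 culture and overlapped each other, and 2 of the MCM2-R#2 cultures were under the level of 3 counts. Its log2FC was -2.17 ± 0.31 for MCM2-2A#2 over WT#1 and -3.58 ± 0.38 for MCM2-R#2 over WT#1. Trappc9, the gene that holds Peg13 in an intron, passed the limits for a call in none of 13 comparisons between lines.

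Zrsr1 was at 34.6, 34.03, 31.5 and 31.99 CPM in MCM2-2A#2, at 26.6, 26.1, 26.4 and 29.7 CPM in MCM2-R#2, and at 15.2, 16.7, 14.5 and 17.1 CPM in WT#1. The lines did not overlap, and both edited lines were above WT#1 (log2FC 1.06 ± 0.07 for MCM2-2A#2 and 0.78 ± 0.07 for MCM2-R#2). Impact was at 71.8, 73.1, 85.05 and 78.1 CPM in MCM2-2A#2, at 81.3, 89.7, 84.6 and 75.8 CPM in MCM2-R#2, and at 134, 127, 134 and 136 CPM in WT#1. Here the edited lines overlapped each other and lay below WT#1, with a log2FC of -0.79 ± 0.06 for MCM2-2A#2 and -0.68 ± 0.06 for MCM2-R#2.

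A call needed an adjusted p below 0.01 and an absolute log2FC above 0.58, and the other 5 genes were not called. Their log2FC lay between -0.32 (Peg3) and 0.71 (Nap1l5) for MCM2-2A#2 over WT#1 and between 0.07 (Peg3) and 1.03 (Nap1l5) for MCM2-R#2 over WT#1. Peg10 was at 676, 709.8, 1210.1 and 1064 CPM in MCM2-2A#2, at 1022, 1242, 1819 and 1002 CPM in MCM2-R#2, and at 776, 373, 800.1 and 840.1 CPM in WT#1. All MCM2-R#2 cultures were above all WT#1 cultures, and culture 2 of WT#1 stood well below its sisters. Nap1l5 had only 4 to 25 counts per culture. In counts past both limits, 4 of the 10 genes were called for MCM2-2A#2 over WT#1, where 2.76% of all tested genes were, 5 for MCM2-R#2 over WT#1 (0.298% of all genes) and 2 for MCM2-R#2 over MCM2-2A#2 (1.36%). These contrasts were in view when the genes were chosen, so nothing is read from the counts. Some cultures of MCM2-2A#2 and WT#1 were sequenced in a second run and no MCM2-R#2 culture was, and with the run as a covariate the counts were again 4, 5 and 2.

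**Figure D1:**
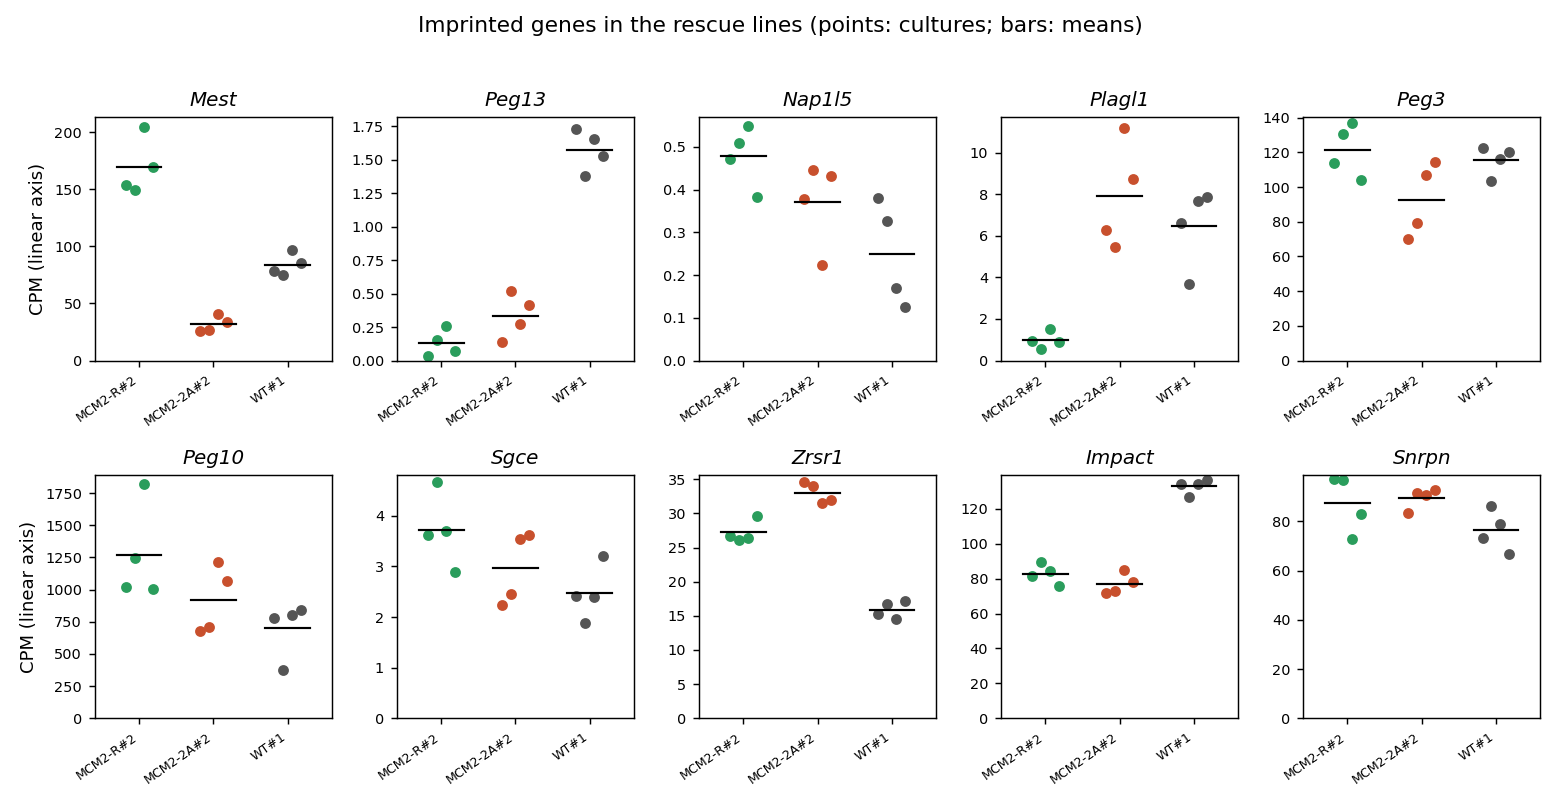
Levels of the 10 genes in the rescue experiment, in CPM on linear axes that start at 0. Each point is 1 culture of MCM2-2A#2, MCM2-R#2 or WT#1, bars are means of 4 cultures, and Mest runs between 26.3 and 41.1 CPM in MCM2-2A#2 and between 149 and 204 CPM in MCM2-R#2, against 74.6 to 96.5 CPM in WT#1.

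MCM2-2A#2 was also sequenced in January, beside MCM2-2A#1. Mest was at 53.6, 20.5 and 19.4 CPM in MCM2-2A#2, against 132 CPM in all 3 libraries of MCM2-2A#1. Impact was at 131, 72.2 and 71.7 CPM in MCM2-2A#2, against 205, 226 and 185 CPM in MCM2-2A#1. Both genes were lower in MCM2-2A#2 without overlap (Mest log2FC -2.07 ± 0.20, edgeR adjusted p = 2.58e-08; Impact -1.16 ± 0.14, edgeR adjusted p = 1.59e-06). Zrsr1 was at 21.6, 21.2 and 18.4 CPM in MCM2-2A#2 and 11.1, 10.8 and 9.74 CPM in MCM2-2A#1, and Plagl1 was at 21.2, 8.48 and 7.29 CPM in MCM2-2A#2 and 3.84, 3.06 and 4.58 CPM in MCM2-2A#1. Both were higher in MCM2-2A#2 (Zrsr1 log2FC 0.95 ± 0.09, edgeR adjusted p = 7.97e-09; Plagl1 1.70 ± 0.27, edgeR adjusted p = 7.56e-05). With these, 4 of the 10 genes were called, where 4.87% of all genes were. Peg13 was low in both lines, at 0.247, 0.292 and 0.446 CPM in MCM2-2A#2 and 0.262, 0.302 and 0.15 CPM in MCM2-2A#1. Library 1 of MCM2-2A#2 stood apart in several of these genes. Without it the log2FC of Mest was -2.73, that of Impact -1.51 and that of Plagl1 1.04, the 4 genes were again called, and Peg3 was called as well (-0.75, edgeR adjusted p = 6.59e-05).

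In March, MCM2-2A#1 and MCM2-2A#3 departed from WT#1 in opposite directions at Peg13 and Plagl1. Peg13 was at 0.171, 0.315 and 0.163 CPM in MCM2-2A#1 and at 4.21, 4.65 and 3.38 CPM in MCM2-2A#3, against 1.68, 2.16 and 1.24 CPM in WT#1. Plagl1 was at 3.95, 3.23 and 4.80 CPM in MCM2-2A#1 and at 26.3, 19.2 and 24.1 CPM in MCM2-2A#3, against 8.44, 8.65 and 9.44 CPM in WT#1. For both genes the 3 lines did not overlap. For MCM2-2A#1 over WT#1 the log2FC was -2.96 ± 0.29 for Peg13 (edgeR adjusted p = 1.32e-08) and -1.15 ± 0.26 for Plagl1 (edgeR adjusted p = 0.00314). For MCM2-2A#3 over WT#1 it was 1.26 ± 0.22 for Peg13 (edgeR adjusted p = 4.93e-05) and 1.39 ± 0.25 for Plagl1 (edgeR adjusted p = 8.61e-05). Compared directly, a comparison chosen after the data were seen, MCM2-2A#3 exceeded MCM2-2A#1 by a log2FC of 4.23 ± 0.27 at Peg13 (edgeR adjusted p = 1.46e-12) and 2.53 ± 0.26 at Plagl1 (edgeR adjusted p = 8.6e-09).

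Of the other genes, Peg10 was called higher in MCM2-2A#1 than in WT#1 in March (log2FC 0.62 ± 0.15, edgeR adjusted p = 0.00396), which made 3 of 10 genes called against 4.71% of all genes. MCM2-2A#3 had 4 of 10 genes called over WT#1, against 11.9% of all genes. Its Mest was at 169.8, 179 and 181 CPM, against 110.3, 109 and 88.97 CPM in WT#1 (log2FC 0.78 ± 0.19, edgeR adjusted p = 0.00192). Its Zrsr1 was at 21.5, 21.1 and 19.7 CPM, against 13.9, 14.1 and 13.5 CPM in WT#1 (log2FC 0.59 ± 0.08, edgeR adjusted p = 3.51e-06). Neither gene overlapped between MCM2-2A#3 and WT#1. The Zrsr1 value lay at the limit on size, and its call held in 2 of 6 fits with 1 library left out. The Mest call held in 4 of 6. For MCM2-2A#1 over WT#1, the Peg10 call held in 2 of 6 such fits and the Plagl1 call in 3 of 6. Between the 2 mutant lines 5 of 10 genes were called (17.5% of all genes), with Zrsr1 also higher (0.81, edgeR adjusted p = 7.63e-09) and Peg3 (-0.71, edgeR adjusted p = 0.00161) and Sgce (-0.89, edgeR adjusted p = 0.00101) lower in MCM2-2A#3. WT#1 library 3 bore on several of these calls: without it 1 gene was called for MCM2-2A#1 over WT#1 (Peg13) and 2 for MCM2-2A#3 over WT#1 (Peg13 and Plagl1). Without library 5 of MCM2-2A#1, 1 gene was called for that line.

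Lines sequenced more than once gave a view of how far a clone kept its levels. Over the 10 genes, MCM2-2A#1 in March over January gave 0 calls with edgeR, against 1.31% of all genes, and 0 at an unadjusted p below 0.05, with a change of at most 0.17 on the log2 scale (Zrsr1). Peg13 was at 0.171, 0.315 and 0.163 CPM in March and 0.262, 0.302 and 0.15 CPM in January. The deviations of January libraries 1, 2 and 3 and March libraries 4, 5 and 6 correlated across genes in matched order (r = 0.329, 0.249 and 0.283) and not in the 6 other pairings (-0.229 to -0.052), so these libraries may share material, the labels do not say, and they are not taken as separate cultures. WT#1 in August over March gave 3 calls, against 5.15% of all genes: Peg3 (0.75 ± 0.19, edgeR adjusted p = 0.00604) and Peg10 (0.82 ± 0.16, edgeR adjusted p = 0.000802) were higher and Zrsr1 (-0.64 ± 0.10, edgeR adjusted p = 7.34e-05) was lower in August. Both comparisons were chosen after the data were seen, and batch and passage cannot be told apart in them. Between experiments processed apart, only levels can be set side by side. MCM2-2A#2 was the lowest line for Mest in both its experiments (19.4 to 53.6 CPM in January and 26.3 to 41.1 CPM in the rescue cultures).

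**Figure D2:**
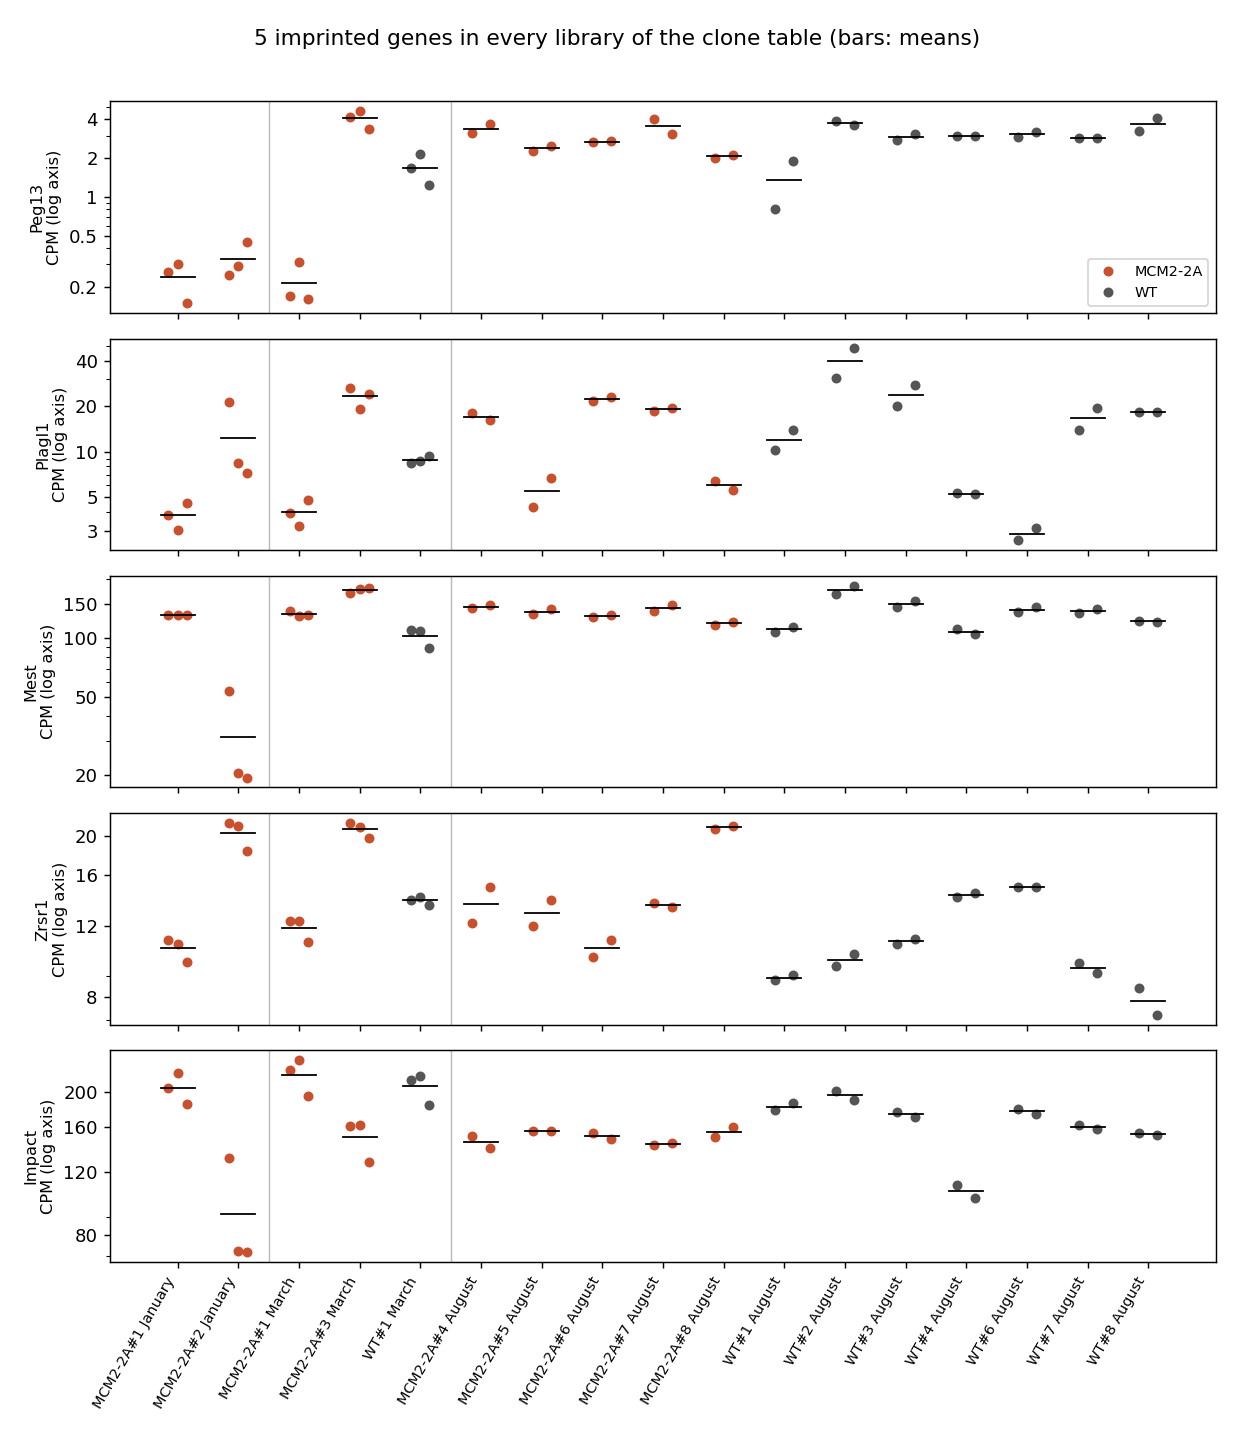
Levels of Peg13, Plagl1, Mest, Zrsr1 and Impact in every library of the clone experiment, in CPM on log axes. Each point is 1 library, bars are means of a clone within a batch, grey lines divide January, March and August, and Peg13 is at 0.15 to 0.446 CPM in MCM2-2A#1 and MCM2-2A#2, against 0.804 CPM or more in every other library.

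Across the 12 clones of August, Plagl1 varied most of the 10 genes. The MCM2-2A clones averaged 17.1 (MCM2-2A#4), 5.53 (MCM2-2A#5), 22.3 (MCM2-2A#6), 19.1 (MCM2-2A#7) and 5.99 CPM (MCM2-2A#8). The WT clones averaged 12.02 (WT#1), 39.5 (WT#2), 23.8 (WT#3), 5.30 (WT#4), 2.87 (WT#6), 16.7 (WT#7) and 18.3 CPM (WT#8). High and low clones occurred in both genotypes. Libraries of 1 clone could also stand apart, as in WT#2 (30.7 and 48.2 CPM) and MCM2-2A#5 (4.31 and 6.75 CPM). The SD between the 12 clone means, WT#6 and WT#8 included, was 1.11 on the log2 CPM scale, against 0.257 between libraries of a clone. For the median gene of the whole table those SDs were 0.272 and 0.195. Every one of the 10 genes had a larger SD between clones than within them, from 0.459 against 0.408 for Nap1l5, which had 2 to 22 counts per library, to 0.520 against 0.112 for Peg3 and 0.224 against 0.0481 for Impact. The median gene did so too, and the share of all genes that did was not counted, so nothing is read from this. Mest was tight in absolute terms, with 0.200 between and 0.058 within clones.

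**Figure D3:**
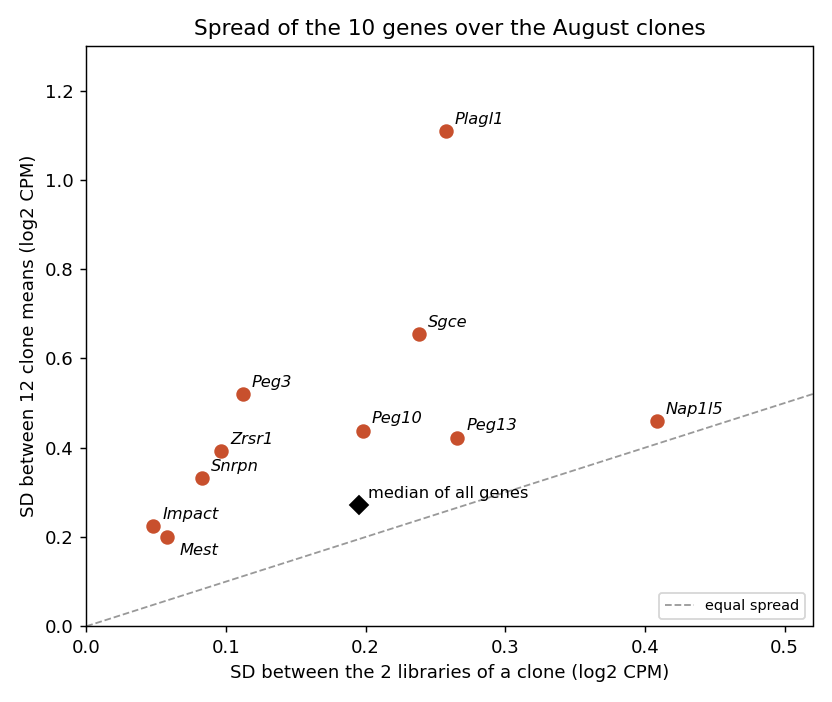
Spread of the 10 genes over the 12 August clones, with the SD between the 2 libraries of a clone on the x axis and the SD between clone means on the y axis, both in log2 CPM. The dashed line marks equal spread and the diamond the median of all genes (0.195 and 0.272), and Plagl1 is the highest point at 0.257 and 1.11.

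An F test asked whether clones differed by more than their libraries did, and a call needed an edgeR adjusted p below 0.01 and a log2 range between clones above 0.58. Among the 5 MCM2-2A clones of August it called 4 of the 10 genes, where 13.7% of all genes were called. These were Plagl1 (range 2.01, edgeR adjusted p = 5.09e-07), Peg3 (1.54, edgeR adjusted p = 2.53e-08), Snrpn (1.23, edgeR adjusted p = 8.5e-09) and Zrsr1 (0.98, edgeR adjusted p = 5.71e-06). Zrsr1 averaged 13.6 (MCM2-2A#4), 12.9 (MCM2-2A#5), 10.5 (MCM2-2A#6), 13.5 (MCM2-2A#7) and 21.1 CPM (MCM2-2A#8). It was high in MCM2-2A#8 alone, and without that clone the range was 0.35 and the gene was not called. Snrpn was at 96.8 CPM in MCM2-2A#5, against 41.6 to 60.9 CPM in the other 4 clones, and without MCM2-2A#5 its range was 0.55, under the limit. Peg13 (range 0.80) was called among the MCM2-2A clones where WT#1 was left out of the fit.

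Among the 7 WT clones the same test called 9 of the 10 genes, all but Nap1l5, where 26.2% of all genes were called. The range was widest for Plagl1 (3.79, edgeR adjusted p = 9.95e-10, WT#2 highest and WT#6 lowest), followed by Sgce (1.84, edgeR adjusted p = 5.96e-06), Peg10 (1.52, edgeR adjusted p = 5.21e-07) and Peg13 (1.45, edgeR adjusted p = 0.00178). The median range of all genes was 0.74 among the WT clones (0.54 among the MCM2-2A clones), and the counts of the genotypes were not tested against each other. Peg13 rested on WT#1, at 1.36 CPM against 2.87 to 3.75 CPM in the other 6 WT clones, and without WT#1 its range was 0.39 and it was not called. Without WT#6 and WT#8, 8 of 10 genes were called and Snrpn was not (range 0.26). WT#6 or WT#8 was the lowest clone for Plagl1, Sgce and Peg10. Over 10 other settings, that one among them, these stayed called, with a range of at least 2.91 for Plagl1, 1.42 for Sgce and 1.22 for Peg10. Without 1 clone each, Mest fell under the range limit without WT#2 (0.48), Impact without WT#4 (0.36) and Snrpn without WT#6 (0.54).

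Between genotypes, 0 of the 10 genes passed the limits for MCM2-2A over WT in the clone experiment with edgeR or with DESeq2, where 0.649% of all genes did with edgeR, and 1 gene (Sgce) had an unadjusted p below 0.05. This contrast is taken as in view when the genes were chosen, so nothing is read from the count. WT#5, the WT clone of January, was not analysed, so January held MCM2-2A lines alone here. With the batch as a covariate its libraries therefore could not inform the log2FC. MCM2-2A#2, sequenced only in January in this experiment, is therefore not covered by the contrast. In August, Sgce, which shares a control region with Peg10, was at 0.939 to 1.77 CPM in the MCM2-2A clones (median 1.23, n = 5), against 1.19 to 4.15 CPM in the WT clones (median 2.22, n = 7). The ranges overlapped, and the log2FC over all batches was -0.71 ± 0.28. Zrsr1 was at 10.5 to 21.1 CPM in the MCM2-2A clones (median 13.5), against 7.81 to 14.9 CPM in the WT clones (median 9.86), with a log2FC of 0.37 ± 0.19. The remaining 8 genes had a log2FC between -0.31 (Peg3) and 0.17 (Nap1l5). Over 22 other settings the log2FC of Sgce lay between -0.88 (without WT#6 and WT#8) and -0.13 (March libraries alone), and that of Zrsr1 between 0.22 and 0.44. Sgce, Zrsr1 and Impact had the same sign in all 22, and the other 7 genes changed sign in 1 to 7 of them, Peg10 reaching 0.49 and Plagl1 0.62 in the March libraries alone.

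WT#1, the control of the rescue, POLE4 and March comparisons, was not in the middle of the WT clones for several of these genes. Among the 12 clones of August it was lowest for Peg13 (0.804 and 1.91 CPM in its libraries), second lowest for Mest (111 CPM, against 108 to 177 CPM in the other WT clones) and second lowest for Zrsr1 (8.91 CPM, against 7.81 to 14.9 CPM). It was the highest WT clone for Snrpn (73.6 CPM) and the second highest WT clone for Peg3, Peg10, Sgce and Impact. A fold change over WT#1 thus measures a line against that clone, and WT#1 changed by up to 0.82 on the log2 scale between March and August (Peg10).

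In the POLE4 experiment, each of the 3 POLE4-KO clones had 5 of the 10 genes called over WT#1, where 11.5% (POLE4-KO#1), 11.3% (POLE4-KO#2) and 2.99% (POLE4-KO#3) of all genes were called. Peg13 was called higher in all 3 clones. It was at 3.67, 2.57 and 3.52 CPM in POLE4-KO#1, 3.87, 3.13 and 3.96 CPM in POLE4-KO#2 and 3.45, 3.61 and 3.74 CPM in POLE4-KO#3, against 1.28, 1.06 and 1.25 CPM in WT#1. No POLE4-KO library overlapped WT#1, and the log2FC was 1.44 ± 0.19, 1.61 ± 0.19 and 1.60 ± 0.19 (edgeR adjusted p = 4.13e-05, 1.51e-05 and 7.9e-05) in clone order. Levels of 2.57 to 3.96 CPM lay within or close to those of the August WT clones other than WT#1 (2.77 to 4.11 CPM per library), a comparison across experiments without a test.

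Mest was at 150.3, 145 and 160.2 CPM in POLE4-KO#1, 196, 198 and 199 CPM in POLE4-KO#2 and 220.0, 234 and 228 CPM in POLE4-KO#3, against 103, 109 and 106 CPM in WT#1. All POLE4-KO libraries were higher than all WT#1 libraries. The log2FC was 0.52 ± 0.06 in POLE4-KO#1, under the limit on size (edgeR adjusted p = 6.88e-06), 0.90 ± 0.06 in POLE4-KO#2 (edgeR adjusted p = 5.45e-08) and 1.10 ± 0.06 in POLE4-KO#3 (edgeR adjusted p = 1.61e-08). Zrsr1 was at 23.4, 22.5 and 23.9 CPM in POLE4-KO#1, 22.6, 21.05 and 24.3 CPM in POLE4-KO#2 and 14.2, 14.4 and 16.2 CPM in POLE4-KO#3, against 11.7, 11.1 and 12.98 CPM in WT#1. POLE4-KO#1 (0.97 ± 0.09, edgeR adjusted p = 1.37e-06) and POLE4-KO#2 (0.93 ± 0.09, edgeR adjusted p = 3.15e-06) were called, and POLE4-KO#3 was not (0.33 ± 0.10, edgeR adjusted p = 0.0334). Plagl1 was at 4.59, 4.65 and 5.53 CPM in POLE4-KO#1, 17.6, 19.7 and 28.8 CPM in POLE4-KO#2 and 13.5, 10.96 and 17.6 CPM in POLE4-KO#3, against 4.95, 6.04 and 5.98 CPM in WT#1. POLE4-KO#1 overlapped WT#1 (-0.20 ± 0.21), while POLE4-KO#2 (1.96 ± 0.19, edgeR adjusted p = 2.36e-06) and POLE4-KO#3 (1.31 ± 0.20, edgeR adjusted p = 0.000495) were called higher.

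Peg10, Peg3 and Snrpn also set the POLE4-KO clones apart from each other. Peg10 was at 529.5, 436 and 612 CPM in POLE4-KO#1, 802, 863 and 1044 CPM in POLE4-KO#2 and 1486, 1426 and 1699.9 CPM in POLE4-KO#3, against 804, 765 and 882 CPM in WT#1. POLE4-KO#1 lay below WT#1 (-0.64 ± 0.12, edgeR adjusted p = 0.00101) and POLE4-KO#3 above it (0.91 ± 0.12, edgeR adjusted p = 0.00019). Peg3 was called higher in POLE4-KO#2 (0.64 ± 0.09, edgeR adjusted p = 8.11e-05) and POLE4-KO#3 (0.91 ± 0.09, edgeR adjusted p = 1.51e-05). Snrpn was at 72.2, 59.9 and 69.1 CPM in POLE4-KO#1, against 106, 95.4 and 105 CPM in WT#1 (-0.60 ± 0.08, edgeR adjusted p = 3.59e-05). Nap1l5, with 13 to 32 counts per POLE4-KO library against 8, 1 and 7 counts in WT#1, was called higher in POLE4-KO#1 (1.90 ± 0.48, edgeR adjusted p = 0.00784), a call lost without either of 2 WT#1 libraries and without any 1 of the 3 POLE4-KO#1 libraries. Without WT#1 replicate 3 the count for POLE4-KO#1 was 3, and without POLE4-KO#1 replicate 2 it was 2, since Nap1l5, Peg10 and Snrpn lay near the limits. Impact was at 234, 291 and 247 CPM in POLE4-KO#1, overlapping none of the 165, 228 and 179.5 CPM of WT#1 yet not past the limits (0.43 ± 0.12), and neither Impact nor Sgce was called in any clone. A test of any difference among the 3 POLE4-KO clones, chosen after the data were seen, called 6 of the 10 genes (21.1% of all genes): Plagl1 (range 2.16), Peg10 (1.55), Peg3 (1.04), Snrpn (0.79), Zrsr1 (0.64) and Mest (0.58). Mest lay at the limit on size, and its call was lost in 5 of 9 fits with 1 library left out. Same-numbered libraries of the 3 clones deviated together, and with the library number as a block Sgce was called as well (range 0.85).

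**Figure D4:**
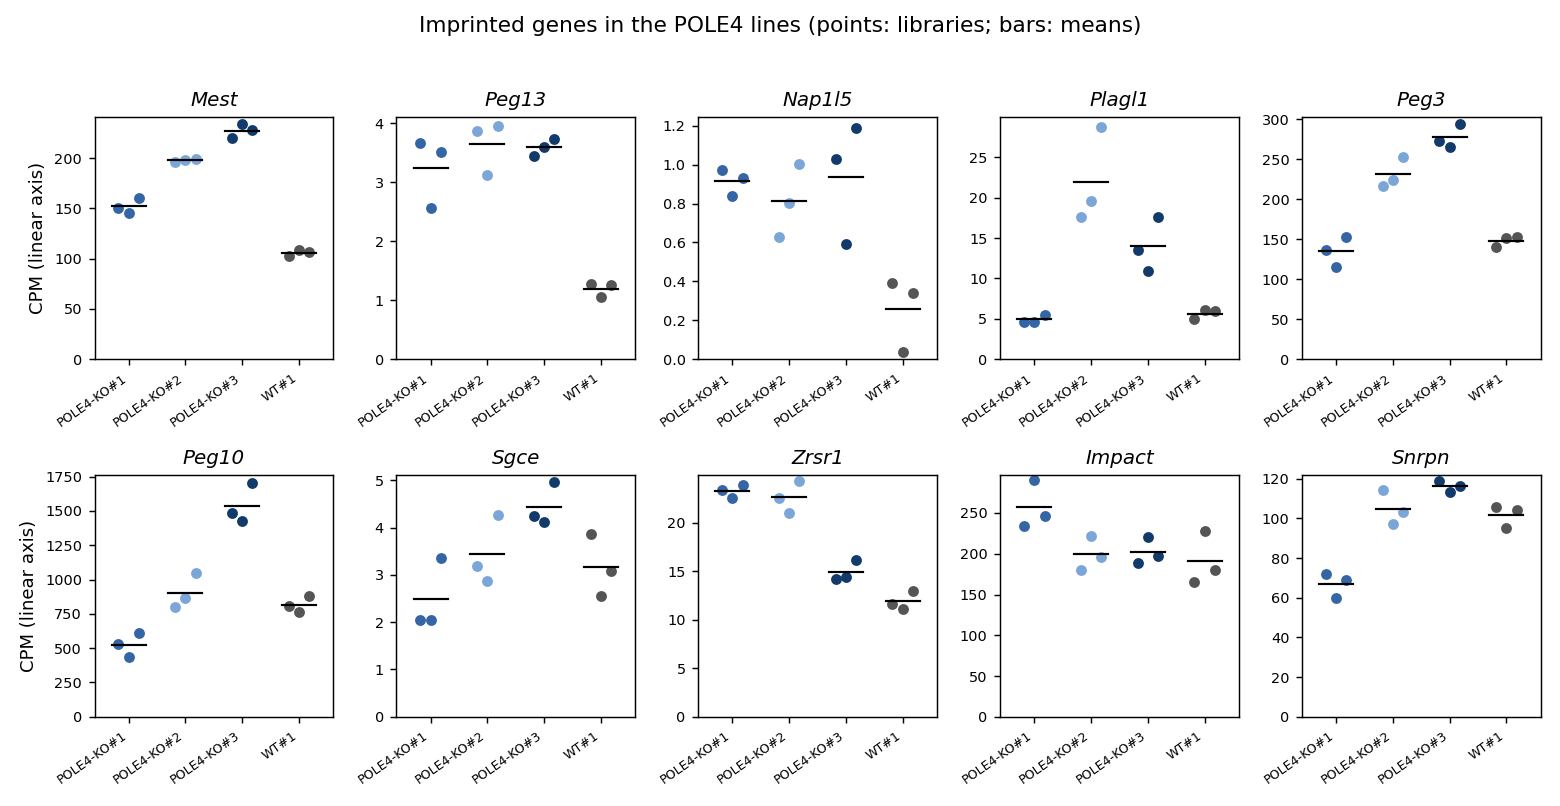
Levels of the 10 genes in the POLE4 experiment, in CPM on linear axes that start at 0. Each point is 1 library of POLE4-KO#1, POLE4-KO#2, POLE4-KO#3 or WT#1, bars are means of 3 libraries, and Peg13 is at 2.57 to 3.96 CPM in the POLE4-KO clones, against 1.06 to 1.28 CPM in WT#1.

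Set side by side, the lines differed in which of the genes departed from WT#1 and in which direction. Zrsr1 had a log2FC over WT#1 of 1.06 in MCM2-2A#2, 0.78 in MCM2-R#2, 0.97 in POLE4-KO#1 and 0.93 in POLE4-KO#2. It was 0.59 in MCM2-2A#3, at the limit on size. In POLE4-KO#3 (0.33) and MCM2-2A#1 (-0.23) it was not called. Peg13 ran from -3.58 in MCM2-R#2, -2.96 in MCM2-2A#1 and -2.17 in MCM2-2A#2 to 1.26 in MCM2-2A#3 and 1.44 to 1.61 in the POLE4-KO clones. Plagl1 ran from -2.76 in MCM2-R#2 and -1.15 in MCM2-2A#1 to 1.96 in POLE4-KO#2. Mest was lower in MCM2-2A#2 alone, at -1.40, and its log2FC was positive in the other 6 lines, from 0.38 in MCM2-2A#1 and 0.52 in POLE4-KO#1, which were not called, to 1.10 in POLE4-KO#3. Impact was called lower in MCM2-2A#2 and MCM2-R#2, the second derived from the first, and in no other line over WT#1. These comparisons share WT#1, so agreement between them in sign was not tested.

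**Figure D5:**
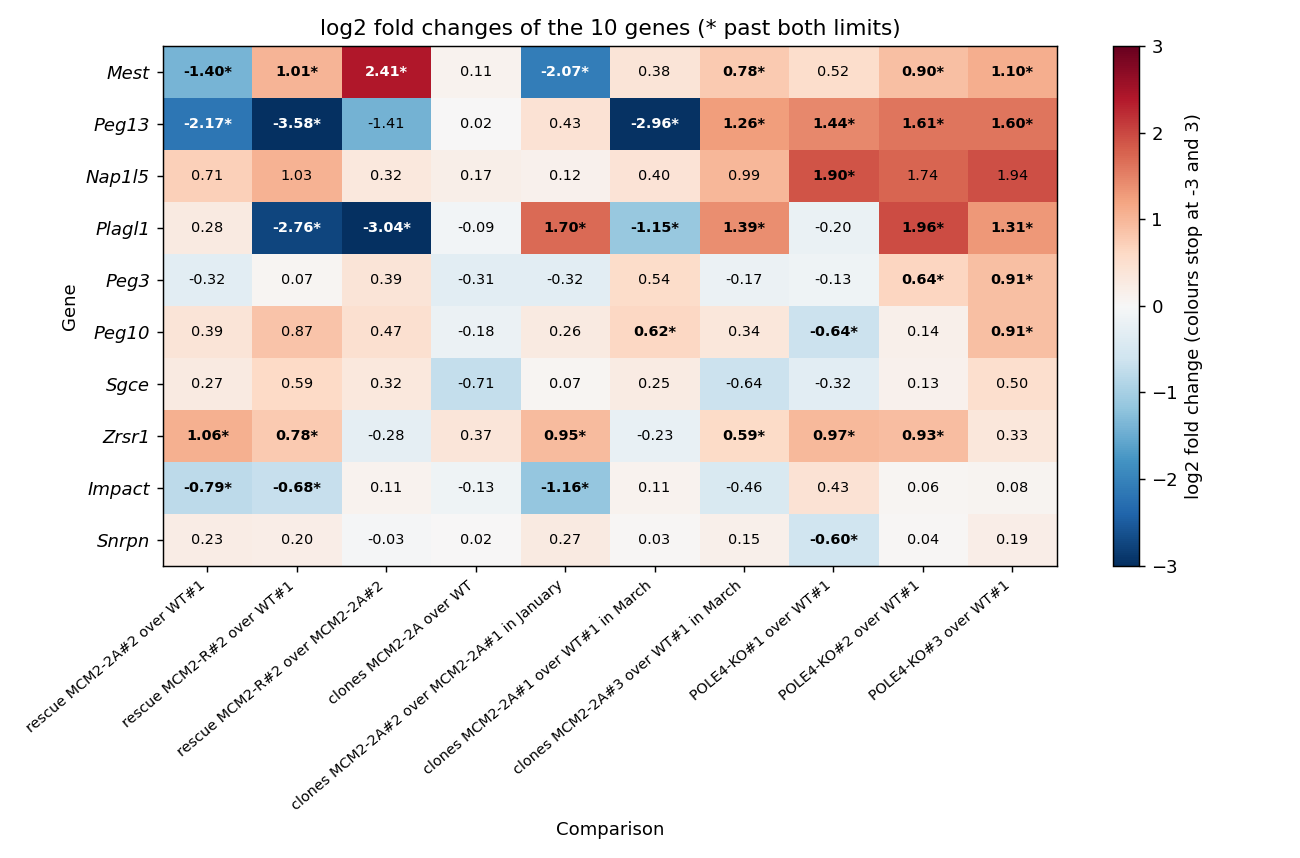
Log2 fold changes of the 10 genes (rows) in 10 comparisons (columns), written in each cell and coloured from blue (lower) to red (higher), with an asterisk where both limits were passed. Asterisks in the rescue columns are descriptions, since those contrasts are taken as used in choosing the genes. Peg13 runs from -3.58 in MCM2-R#2 to 1.61 in POLE4-KO#2 over WT#1, and the column of MCM2-2A over WT clones holds no asterisk.

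Genes around the loci moved little in the median. Over the 45 calls of a gene in 13 comparisons, the median log2FC of the expressed genes within 5 Mb (28 to 134 genes) lay between -0.22 and 0.24. A list held 19 host and neighbouring genes, not sorted by whether they are imprinted themselves. Of these, 16 were tested in the rescue experiment, and 1 was called for MCM2-2A#2 over WT#1 (Peg12 near Snrpn, -1.26), where 2.76% of all genes were. In the clone experiment 17 were tested. For MCM2-2A#3 over WT#1 in March, 2 were higher and 3 lower (11.9% of all genes), namely Zfp264 (1.22) and Zim1 (0.96) beside Peg3, Ndn (-0.84) and Peg12 (-2.21) near Snrpn, and Phactr2 beside Plagl1 (-0.95). For MCM2-2A#3 over MCM2-2A#1, 1 was higher and 4 lower (17.5% of all genes), namely Zfp264 (2.40), Herc3, the host of Nap1l5 (-0.76), Ndn (-1.005), Peg12 (-1.62) and Phactr2 (-1.21). In January Zfp264 was higher (1.62) and Ndn (-0.81) and Peg12 (-0.93) lower in MCM2-2A#2 than in MCM2-2A#1 (4.87% of all genes). With edgeR 0 were called for MCM2-2A#1 over WT#1 in March (8 at an unadjusted p below 0.05), where 4.71% of all genes were. For MCM2-2A over WT clones 0 were called with edgeR (6 at an unadjusted p below 0.05), where 0.649% of all genes were. The share of all genes at an unadjusted p below 0.05 was not counted.

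In the POLE4 experiment 16 of the neighbours were tested. In POLE4-KO#1, Casd1 beside Sgce was higher (0.62) and Usp29 (-0.94) and Zfp264 (-1.43), which both lie beside Peg3, and Magel2 near Snrpn (-1.10) were lower, so 4 of 16 were called, against 11.5% of all genes. In POLE4-KO#2 Herc3 was lower (-0.66), 1 of 16 against 11.3% of all genes, and in POLE4-KO#3 0 were called with edgeR (5 at an unadjusted p below 0.05), against 2.99%. Commd1, the host of Zrsr1, was called in no comparison.

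Genes for the maintenance, writing and removal of DNA methylation, some of which keep imprints, were measured as a list of 13, all tested in each experiment (Zfp57, Zfp445, Trim28, Setdb1, Dnmt1, Uhrf1, Dppa3, Dnmt3a, Dnmt3b, Dnmt3l, Tet1, Tet2 and Smchd1). In the rescue experiment 1 of 13 was lower in MCM2-2A#2 than in WT#1 (2.76% of all genes called) and 1 in MCM2-R#2 (0.298%), which was Dppa3, a factor that shields the maternal genome from demethylation (-0.999 and -0.926). The median of the list was -0.01 and -0.04, against 0.01 and 0.01 for all genes. Dppa3 was also the 1 gene called lower in MCM2-2A#1 (-0.73, edgeR adjusted p = 0.000935, 4.71% of all genes called) and in MCM2-2A#3 (-0.64, edgeR adjusted p = 0.00132, 11.9%) than in WT#1 in March, and in POLE4-KO#3 (-0.81, edgeR adjusted p = 0.00971, 2.99%). WT#1 itself was lower at Dppa3 in August than in March (-0.79, edgeR adjusted p = 0.00196), as it was at Zfp57 (-0.65), and for MCM2-2A over WT clones the log2FC of Dppa3 was -0.40 and not called.

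In POLE4-KO#1 and POLE4-KO#2 the de novo methyltransferase gene Dnmt3a was lower (-1.32 and -0.88) and Tet1, which oxidises methylated cytosine, was higher (0.88 and 0.70), so 2 of 13 were called in each, against 11.5% and 11.3% of all genes. MCM2-2A#3 exceeded MCM2-2A#1 at Zfp57 (0.90), Tet1 (0.89) and Tet2 (0.94), 3 of 13 against 17.5% of all genes, with a list median of 0.27, against 0.02 for all genes. In January Dnmt3a (0.77) and Tet2 (0.65) were higher in MCM2-2A#2 than in MCM2-2A#1, 2 of 13 against 4.87% of all genes. For MCM2-2A over WT clones the list median was 0.04 and the all-gene median 0.00.

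Of a list of 26 other imprinted genes, 24 were tested in the rescue experiment, where H19, a noncoding RNA gene, was higher (1.25) and Rian lower (-0.61) in MCM2-2A#2 than in WT#1, against 2.76% of all genes called. For MCM2-R#2 over WT#1, Grb10, which encodes an adaptor that restrains growth factor signalling, was higher (0.999) and H19 (-1.28) and Rian (-0.95) were lower (0.298% of all genes). For MCM2-R#2 over MCM2-2A#2, 4 were higher (Mirg 0.83, Grb10 0.59, Gnas 0.59 and Nnat 1.59) and 2 lower (H19 -2.53 and H13 -0.59), against 1.36% of all genes.

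In the clone experiment all 26 were tested. For MCM2-2A#1 over WT#1 in March, H19 (1.16), Igf2 (1.98), Dlk1 (0.79) and Gatm (0.95) were higher and Grb10 (-2.02) was lower, against 4.71% of all genes called. For MCM2-2A#3 over WT#1, H19 (2.28), Nespas (1.11) and Mcts2 (1.19) were higher and Igf2 (-1.74), Cdkn1c (-0.94), Phlda2 (-0.72) and Gnas (-1.43) lower, against 11.9%. Between these lines 11 of 26 were called, against 17.5% of all genes, with H19 (1.12), Grb10 (1.90), Nespas (1.36) and Mcts2 (0.63) higher in MCM2-2A#3 and Igf2 (-3.71), Dlk1 (-1.19), Cdkn1c (-0.81), Phlda2 (-0.73), Gnas (-1.68), Sfmbt2 (-0.81) and Gatm (-1.64) lower. In January Grb10 (2.13) and H13 (0.61) were higher and Gnas (-0.68) lower in MCM2-2A#2 than in MCM2-2A#1, against 4.87%. WT#1 was higher at Sfmbt2 (0.61) and Gatm (1.19) in August than in March, against 5.15%. For MCM2-2A over WT clones the list median was -0.09, against 0.00 for all genes.

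In the POLE4 experiment 24 of the 26 were tested. In POLE4-KO#1, 3 were higher (Slc22a18 1.198, Grb10 1.003 and Nnat 0.70) and 4 lower (H19 -0.95, Igf2 -2.28, Dlk1 -0.93 and Gatm -0.64), against 11.5% of all genes called. In POLE4-KO#2, 5 were higher (H19 4.54, Kcnq1ot1 1.13, Nespas 1.45, Nnat 1.302 and Mcts2 0.83) and 5 lower (Igf2 -0.65, Cdkn1c -0.84, Phlda2 -1.31, Gnas -1.10 and Gatm -0.63), against 11.3%. In POLE4-KO#3, 6 were higher (H19 5.23, Igf2 0.71, Meg3 0.65, Kcnq1ot1 0.83, Nespas 0.77 and Nnat 1.52) and 2 lower (Phlda2 -0.63 and Grb10 -0.87), against 2.99%. H19 and Igf2 were each called higher in at least 1 knockout clone and lower in another. The median log2FC of the list was -0.08, 0.01 and 0.24 in clone order, against 0.01, 0.00 and 0.00 for all genes.

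Summed levels of markers of other cell types differed between some lines. Primitive endoderm markers (5 genes, none at 0) summed to 32.9 to 47.6 CPM in MCM2-2A#2, 12.02 to 14.6 CPM in MCM2-R#2 and 11.8 to 14.0 CPM in WT#1 in the rescue experiment. In the POLE4 experiment trophectoderm markers (4 genes) summed to 14.1 to 18.3 CPM in POLE4-KO#1, 66.0 to 75.6 CPM in POLE4-KO#2 and 179 to 230 CPM in POLE4-KO#3, against 175 to 186 CPM in WT#1. Fibroblast markers (5 genes) there summed to 5.07 to 5.30 CPM in POLE4-KO#1, 9.25 to 11.1 CPM in POLE4-KO#2 and 69.5 to 87.8 CPM in POLE4-KO#3, against 78.6 to 79.7 CPM in WT#1. In March fibroblast markers summed to 62.8 to 90.8 CPM in MCM2-2A#1 and 7.11 to 7.46 CPM in MCM2-2A#3, against 42.6 to 63.4 CPM in WT#1, and trophectoderm markers to 225 to 339 CPM in MCM2-2A#1 and 27.6 to 34.9 CPM in MCM2-2A#3, against 83.5 to 133 CPM in WT#1. Of the trophectoderm markers, Cdx2 (-2.27) and Krt8 (-2.15) were lower and Gata3 (1.03) was higher in MCM2-2A#3 than in WT#1. In August the trophectoderm sum ran from 14.6 to 69.3 CPM in the MCM2-2A clones and from 5.49 CPM in WT#6 to 235.5 CPM in WT#2. The fibroblast sum in August ran from 6.70 to 68.2 CPM in the MCM2-2A clones and from 3.32 to 90.3 CPM in the WT clones. In the clone experiment library 1 of MCM2-2A#2 in January held the highest Mest, Plagl1, Impact and Peg3 of its line, and the trophectoderm sum of the line ran from 33.2 to 182 CPM. Of the defining markers, Lum was at 0 in 7 libraries of each experiment and Elf5 in 2 rescue cultures, 3 POLE4 libraries and 5 clone libraries. The part of these cells in the levels of the 10 genes was not tested.

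Over the 12 August clones the genes whose clone means followed those of Plagl1 most closely, of 20587 genes, were Gm23119 (Pearson r = 0.95), Apcdd1 (0.94) and Nap1l2 (0.94). Sgce was followed by Gm16233 (0.95), Ralgds (0.94) and Tspan9 (0.94), and Peg3 by Foxn3 (0.98), Serinc5 (0.97) and Slitrk4 (0.96). These are descriptions over 12 points that share depth and batch, taken as the highest of many.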

How the data were processed

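RNA was depleted of rRNA and made into strand-specific libraries. Per the labels, the authors used Trimmomatic 0.39 for trimming, STAR 2.7.1a for alignment (mm10) and, for the POLE4 and clone experiments, featureCounts (version not given in the sources used here) for counting. They deposited 3 tables of raw counts, with 55335 gene rows each. Of 68 columns 65 were used, and 3 columns that match no sample in the labels were not. Repeat rows were left out. WT#5 was not analysed here. The group of MCM2-R#2 rests on the column names and the study's sample table, since its labels give a wild-type genotype. Symbols and positions came from GENCODE vM21, which held 55154 of the rows.

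Technical runs of a rescue culture were summed. Counts were fitted with edgeR 4.0.16 (R 4.3.3, limma 3.58.1, quasi-likelihood, TMM, filterByExpr with min.count 10 and min.total.count 15), with Benjamini-Hochberg adjustment over all gene rows tested, and a call needed an adjusted p below 0.01 and an absolute log2FC above 0.58, the limits of the study. SE is the log2FC over the root of F. Rescue and POLE4 lines were fitted as groups. For MCM2-2A over WT, each clone's libraries of 1 batch were added up and the batch was a covariate. January held no WT clone that was analysed, so it did not inform that log2FC. MCM2-2A#1 (January and March) and WT#1 (March and August) entered once per batch as separate units, though they are the same clones. F tests among clones and within-batch contrasts of lines used single libraries, so their p-values measure only the spread between libraries of a clone. Descriptive log2 CPM used a pseudocount of 0.1. Replicates were compared by chi-square (6.12 to 127 per degree of freedom), and none differed by less than sampling noise. Floors and counting errors cover counting only.

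The members and the lists were chosen with earlier results of these data known. The text names all 10 members, the listed neighbours, hosts, DNA methylation and imprint maintenance genes and other imprinted genes where called, and the 3 genes most like Plagl1, Sgce and Peg3, the 3 members with the widest range over the August clones. Same-numbered rescue cultures were not paired: 5 of 12 same-number correlations of residuals exceeded 0.1 (-0.118 to 0.4), as did 6 of 36 others. For the 3 POLE4-KO clones 9 of 9 exceeded 0.1 (0.151 to 0.33) and 0 of 18 others did, but WT#1 carries other numbers. In the August clones other than WT#1, whose libraries carry other numbers, 72 of 110 did (0.05 to 0.282) and 0 of 110 others. Alternatives were DESeq2 1.42.0, RLE size factors, no filter, a block, the run as a covariate, single batches and leaving out each library or clone. The fits were also run on simulated counts with known changes, with the same dispersion for every gene of a simulation. The simulated genotype fit had no batch term, so the batch adjustment was not tested. The outcome is not given here.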

Additional observations from a re-analysis of the deposited data

Results flagged for a closer look

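Of 50 groups of 4 to 10 samples tested for a single value far from the rest (Dixon's gap test at the 95% level, which chance passes in about 1 group in 20), 4 were past the limit. WT#1 was at 1.36 CPM of Peg13 among the August WT clones, where the other 6 were at 2.87 to 3.75 CPM. Culture 2 of WT#1 in the rescue experiment was at 373 CPM of Peg10, against 776 to 840 CPM in its sisters. Culture 4 of MCM2-R#2 was at 29.7 CPM of Zrsr1, against 26.1 to 26.6 CPM in the others. MCM2-2A#8 was at 21.1 CPM of Zrsr1 among the August MCM2-2A clones, against 10.5 to 13.6 CPM in the other 4.

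The 3 POLE4-KO clones differed from each other, by a direct test, at Plagl1 (log2 range 2.16), Peg10 (1.55), Peg3 (1.04), Snrpn (0.79), Zrsr1 (0.64) and Mest (0.58, a call lost in 5 of 9 fits with 1 library left out). In March the lines MCM2-2A#3 and MCM2-2A#1 differed, also by a direct test, at Peg13 (log2FC 4.23), Plagl1 (2.53), Zrsr1 (0.81), Sgce (-0.89) and Peg3 (-0.71).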

How the results depend on the processing

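Over 1380 values of the 10 genes under an alternative, 1326 kept their side of the limits or, without a test, moved by less than the spread. A change of sign in a tested value that was called in neither fit was not counted as a change. Snrpn for MCM2-2A#1 over WT#1 in March, for example, changed sign in 3 of 6 alternatives. In an untested value that was not called, a change of sign counted only where the move exceeded the spread. For MCM2-2A over WT clones that spread was the wide SD between August clones within a genotype. Peg13 changed sign in 7 of 22 settings of that contrast. In comparisons with a test 37 values lost a call and 10 gained one, 7 values without a test moved by more than the spread, and 0 reversed a call. Of those 7, Peg10 for MCM2-R#2 over WT#1 passed the limits without the low-count filter. The rescue counts of 4, 5 and 2 genes were 4, 5 to 6 and 2 under the other settings and 4, 5 and 2 with any culture left out, and the genotype count was 0 throughout. With a clone left out the counts were 3 to 4 of 10 (4 with all clones) among August MCM2-2A clones and 8 to 9 (9) among August WT clones. With a library left out they were 2 to 4 (5) for POLE4-KO#1, 4 to 5 (5) for POLE4-KO#2, 5 (5) for POLE4-KO#3, 5 to 7 (6) among POLE4-KO clones, 1 to 3 (3) for MCM2-2A#1 and 2 to 4 (4) for MCM2-2A#3 over WT#1 in March, 5 to 6 (5) for MCM2-2A#3 over MCM2-2A#1 and 4 to 5 (4) in January. Leaving out libraries also leaves fewer samples for the test. DESeq2 called Nap1l5 in POLE4-KO#2 and POLE4-KO#3 as well, so 6 genes each, and the cause was not tested.

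Same-numbered samples share only a number in the rescue experiment. With the replicate block there, the counts were 4, 5 and 2. In August the replicate block left out WT#1, whose libraries carry other numbers. It gave 5 genes among MCM2-2A clones, with Peg13 (range 0.80) added, and 8 among WT clones, Peg13 (0.39) no longer one of them. Fits without WT#1 and without the block, the first of them added after the data were seen, also gave 5, with Peg13 added (0.80), and 8, with Peg13 (0.39) not called. Among POLE4-KO clones the block gave 7 genes, with Sgce (0.85) added. No paired analysis was possible for POLE4-KO over WT#1 because the WT#1 libraries carry other numbers, nor for MCM2-2A over WT clones, where a clone's libraries were added up. Depth limits Nap1l5 (1 to 32 counts per library) and Peg13 where it was low.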
